A study of Mus musculus with 6 samples.

Results

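Immediate early transcription factors were measured in the muscle of TFEB KO and WT mice. The group holds 10 genes, chosen by name: Fos, Fosb, Jun, Junb, Egr1, Egr2, Atf3, Nr4a1, Myc and Ier2. All 10 have a probe set that names no other gene, and they are read by 12 of the 22626 probe sets tested, or 10 of 12393 genes. Jun and Egr2 have 2 probe sets each and the other members 1 each. The 3 TFEB KO mice lack Tcfeb, the mouse gene for TFEB (now Tfeb), in muscle, through a floxed allele crossed to the MLC1f-Cre transgene, which is active in muscle fibers. The 3 WT mice were the controls, and the sources used here do not say whether they carried the floxed allele or the transgene. All 6 were C57BL/6 mice aged 1 month, no treatment is named, and 1 Affymetrix array was hybridised per mouse with muscle RNA. The sources used here do not name the muscle taken or describe its dissection. Values are log2 RMA values, the authors' normalized intensity of each probe set, so a difference of 1 is a doubling. The level of each factor was compared between the groups, and the mice of a group were compared with each other.

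Immediate early genes are transcribed within minutes of a stimulus, without new protein synthesis, because the factors that act on their promoters are already present and need only be phosphorylated or released. Their mRNAs are short-lived, so that levels rise and fall quickly. FOS and JUN proteins pair through leucine zippers to form AP-1, EGR proteins bind DNA through zinc fingers, and NR4A1 is a nuclear receptor that acts without a known physiological ligand. In skeletal muscle, contraction, stretch, injury and stress are known to induce many of them.

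The sequences upstream of Atf3, Fos and Nr4a1 are shown because these members had the largest differences between the groups. Each is the 250 bases before a RefSeq transcription start (GRCm38.p6), 5′ to 3′ on the gene's strand, and the start of Nr4a1 used here lies inside the span of the gene. They lie at chr1:191183334-191183583 (minus strand), chr12:85473640-85473889 (plus strand) and chr15:101266596-101266845 (plus strand). Capitals mark matches on either strand to TGACGT (the first 6 letters of the cAMP response element TGACGTCA), TGANTCA (AP-1), TGCGTCA (an AP-1-like sequence, added after these promoters had been read), CACGTG (the E-box at the core of the TFEB site), GCGNGGGCG (EGR), AAAGGTCA (the NR4A response element) or the CArG box bound by SRF.
Atf3: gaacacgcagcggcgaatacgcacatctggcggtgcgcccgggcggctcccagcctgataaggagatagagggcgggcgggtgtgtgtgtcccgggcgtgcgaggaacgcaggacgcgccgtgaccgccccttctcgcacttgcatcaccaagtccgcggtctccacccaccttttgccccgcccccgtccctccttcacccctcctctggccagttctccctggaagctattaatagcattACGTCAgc
Fos: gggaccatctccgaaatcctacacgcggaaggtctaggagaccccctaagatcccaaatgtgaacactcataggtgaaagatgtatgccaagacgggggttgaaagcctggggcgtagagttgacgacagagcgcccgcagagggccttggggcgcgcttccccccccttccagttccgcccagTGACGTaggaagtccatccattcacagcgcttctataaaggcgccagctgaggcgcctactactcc
Nr4a1: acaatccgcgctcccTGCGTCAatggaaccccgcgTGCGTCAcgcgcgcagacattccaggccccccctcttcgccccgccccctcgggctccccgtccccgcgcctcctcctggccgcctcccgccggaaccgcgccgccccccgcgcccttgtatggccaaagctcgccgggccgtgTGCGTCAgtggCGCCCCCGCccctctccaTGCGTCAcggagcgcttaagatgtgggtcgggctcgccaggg
The Atf3 and Fos sequences each hold 1 match to TGACGT, and that of Nr4a1 holds 4 matches to TGCGTCA and 1 to GCGNGGGCG. None of the 3 holds CACGTG in this window. Of 32851 such windows in the RefSeq table, 6.47% hold TGACGT, 1.75% TGCGTCA, 4.70% GCGNGGGCG and 6.02% CACGTG. The AP-1 letters TGANTCA were found in 6.75%, AAAGGTCA in 1.34%, the full TGACGTCA, which contains TGACGT, in 1.55% and the CArG box in 1.47%. The table holds 7 of the 10 members. Of the others there, Fosb had 1 match to TGCGTCA and 1 to GCGNGGGCG, and Junb had no match to any of these motifs. Egr2, which has several listed starts, had matches to TGACGT, to the E-box and to the CArG box.

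Tfeb read 7.10, 7.23 and 7.04 in TFEB KO muscle, against 8.61, 8.55 and 8.96 in WT muscle, and the groups did not overlap. The difference was -1.58 (standard error 0.13, adjusted p = 0.0079 from limma). The 15 defining genes of skeletal muscle, such as Acta1 and Ckm, read 13.03 to 14.93 on the 6 arrays. The 14 measured genes of other organs, such as Alb of liver and Prm1 of testis, read 2.88 to 6.76, a guide to values at which a probe set may show no signal of its gene. Over all probe sets, arrays of the same group correlated at 0.992 to 0.997 (Pearson r) and arrays of different groups at 0.989 to 0.993. Because the RNA is from whole tissue, more cells of a type and more RNA per cell cannot be told apart.

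No member passed the test. At an adjusted p under 0.05 from limma, over all 22626 probe sets and counted on the brightest probe set of each gene, 0 of the 10 factors were higher and 0 were lower in TFEB KO muscle, where 0.871% of all genes were higher and 0.702% lower. At an unadjusted p under 0.05, 4 of the 10 differed, Atf3, Fos and Junb with higher values and Nr4a1 with lower ones, where 17.1% of all genes did. The groups did not overlap in 1 of the 10, Atf3, against 23.8% of all genes. The median difference of the 10 was 0.23 on the log2 scale, with 7 above 0 and 3 below, and that of all genes was -0.01. The spread within a group was wide for most of the factors. The pooled SD of Fos, Egr1 and Atf3 was larger than that of 99.4%, 99.4% and 99.2% of genes.

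**Figure D1:**
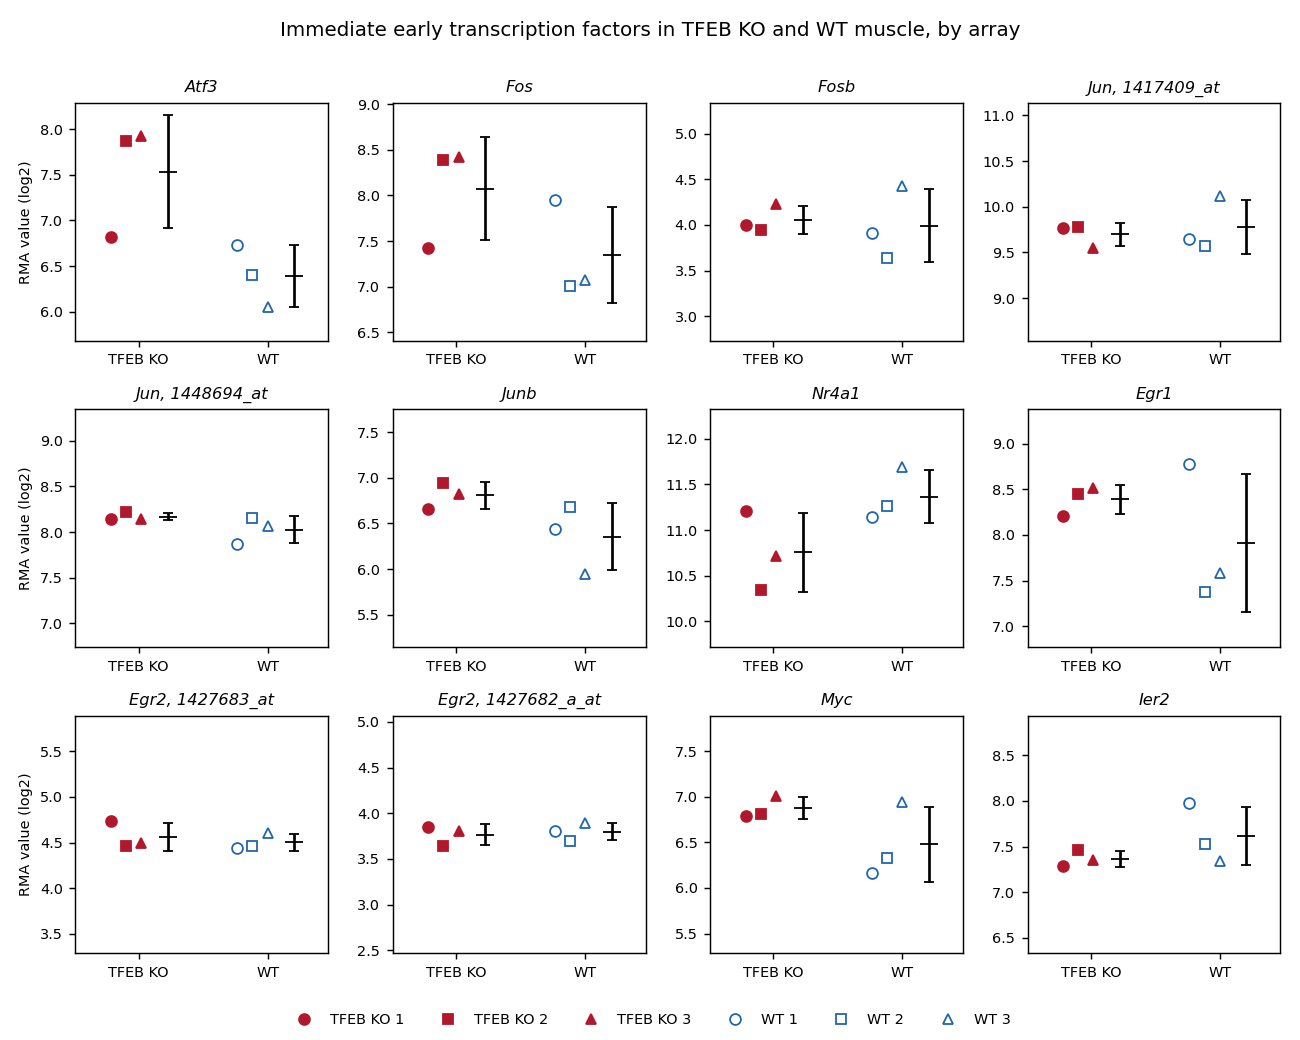
RMA value (log2, vertical axis, each panel spanning the same number of units) of the 12 probe sets of the 10 factors, with 1 point per array for 3 TFEB KO (filled) and 3 WT (open) mice, the marker shape giving the mouse number and the bars the mean and SD of each group. TFEB KO 1 lies beside the WT arrays for Atf3, Fos and Nr4a1, while WT 1 is the highest array of all for Egr1 and Ier2.

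Atf3, a stress-induced bZIP factor that pairs with JUN proteins and often represses transcription, had the largest difference of the group. Its gene lies on chromosome 1 (191170296 to 191183333). It read 6.82, 7.87 and 7.92 in TFEB KO muscle, against 6.73, 6.40 and 6.05 in WT muscle. TFEB KO 2 and 3 stood more than 1 unit above every WT array, while TFEB KO 1 lay just above WT 1. The means were 7.53 ± 0.62 in TFEB KO and 6.39 ± 0.34 in WT muscle (SD, n = 3 mice each), a difference of 1.14 (95% confidence interval 0.47 to 1.82). All 3 WT values lay within the range of the genes of other organs and TFEB KO 1 just above it, so no fold is given. The difference did not pass the test (adjusted p = 0.0999 from limma, unadjusted p = 0.0043). An exact permutation test, two-sided, gave p = 0.10, the smallest that 3 arrays against 3 allow. Without TFEB KO 1 the difference was 1.50 and passed (adjusted p = 0.016), and it passed under no other setting tried (adjusted p = 0.057 to 0.34).

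Of the FOS subunits of AP-1, which need a JUN partner to bind DNA, Fos followed the same order of arrays in TFEB KO muscle. Fos (chromosome 12, 85473890 to 85477274) read 7.42, 8.39 and 8.42 in TFEB KO muscle, against 7.95, 7.00 and 7.08 in WT muscle. In each group 1 array stood apart, TFEB KO 1 low and WT 1 high, so that the groups overlapped. The means were 8.08 ± 0.57 in TFEB KO and 7.34 ± 0.52 in WT muscle (SD, n = 3 mice each), a difference of 0.73 (95% confidence interval 0.003 to 1.46) or 1.66-fold (adjusted p = 0.29 from limma). Without TFEB KO 1 the difference was 1.06 (adjusted p = 0.096), without WT 1 it was 1.03 (adjusted p = 0.24), and without any other single array it was 0.56 to 0.60. Fosb (chromosome 7, 19302696 to 19310118), whose protein has the same kind of zipper, read 4.00, 3.94 and 4.23 in TFEB KO muscle, against 3.91, 3.64 and 4.43 in WT muscle. All 6 values lay within the range of the genes of other organs. The groups overlapped, and the difference of 0.06 had an interval of -0.37 to 0.50 (adjusted p = 0.91 from limma), and was -0.11 to 0.28 with single arrays left out.

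The JUN subunits, which can pair with FOS proteins or with each other, gave smaller differences. Junb (chromosome 8, 84976909 to 84978748) read 6.65, 6.94 and 6.83 in TFEB KO muscle, against 6.43, 6.68 and 5.95 in WT muscle. WT 3 was the lowest array, WT 2 stood above TFEB KO 1, and the TFEB KO arrays lay within 0.29 of each other. The 3 WT values and that of TFEB KO 1 lay within the range of the genes of other organs, so no fold is given here either. The difference was 0.45 (95% confidence interval 0.04 to 0.86, adjusted p = 0.24 from limma), and 0.25 without WT 3. Jun (chromosome 4, 95049036 to 95052222) read 9.77, 9.78 and 9.55 in TFEB KO muscle, against 9.65, 9.57 and 10.12 in WT muscle on its brighter probe set, where WT 3 alone stood apart. Its dimmer probe set read 8.14, 8.22 and 8.15 in TFEB KO muscle, against 7.87, 8.15 and 8.06 in WT muscle. The brighter probe set gave -0.08 (interval -0.43 to 0.27) and the dimmer one 0.14 (interval -0.09 to 0.37), so they differed in sign and neither passed (adjusted p = 0.84 and 0.54 from limma). With single arrays left out the brighter one was at -0.19 (without WT 2) to 0.09 (without WT 3).

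Nr4a1 (chromosome 15, 101253902 to 101274795), an orphan nuclear receptor that controls glucose-metabolism genes in muscle, had the largest difference below 0. It read 11.21, 10.35 and 10.71 in TFEB KO muscle, against 11.14, 11.26 and 11.69 in WT muscle. TFEB KO 1 lay among the WT arrays, and TFEB KO 2 and 3 lay below all of them. The means were 10.76 ± 0.43 in TFEB KO and 11.37 ± 0.29 in WT muscle (SD, n = 3 mice each), a difference of -0.61 (95% confidence interval -1.12 to -0.10), or 1.52-fold lower, that did not pass (adjusted p = 0.21 from limma). Without TFEB KO 1 it was -0.83 (adjusted p = 0.072), and without TFEB KO 2 it was -0.40.

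Egr1 and Egr2 are zinc finger factors, the first induced by growth factors and stretch in many cells and the second best known for its role in myelinating Schwann cells. Egr1 (chromosome 18, 34861207 to 34864956) read 8.21, 8.44 and 8.51 in TFEB KO muscle, against 8.78, 7.37 and 7.58 in WT muscle. The TFEB KO arrays lay within 0.30 of each other, while WT 1 was the highest array of all and the WT range was 1.41. The difference was 0.48 (95% confidence interval -0.25 to 1.21, adjusted p = 0.50 from limma), and 0.91 without WT 1 (adjusted p = 0.072) but 0.21 without WT 2 and 0.31 without WT 3. Egr2 (chromosome 10, 67534469 to 67542188) read 4.74, 4.46 and 4.50 in TFEB KO muscle, against 4.44, 4.46 and 4.61 in WT muscle on its brighter probe set. The dimmer probe set read 3.85, 3.64 and 3.81 in TFEB KO muscle, against 3.80, 3.70 and 3.90 in WT muscle. Both lie within the range of the genes of other organs, the groups overlapped, and the differences were 0.06 (interval -0.18 to 0.31) and -0.03 (interval -0.26 to 0.20), the first at -0.02 to 0.12 with single arrays left out.

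Myc, the bHLH zipper factor that pairs with MAX and promotes growth, and Ier2, a nuclear protein of the early response, varied mainly among the WT mice. Myc (chromosome 15, 61985341 to 61990361) read 6.79, 6.81 and 7.01 in TFEB KO muscle, against 6.16, 6.33 and 6.94 in WT muscle. WT 1 and 2 were the lowest arrays, within the range of the genes of other organs, and WT 3 lay among the TFEB KO arrays. The difference was 0.39 (95% confidence interval -0.04 to 0.83, adjusted p = 0.34 from limma), 0.62 without WT 3 (adjusted p = 0.096) and 0.23 without WT 1 (adjusted p = 0.71). Ier2 (chromosome 8, 84661331 to 84662852) read 7.29, 7.46 and 7.35 in TFEB KO muscle, against 7.97, 7.53 and 7.34 in WT muscle. WT 1 was the highest array, as for Egr1, and WT 3 lay among the TFEB KO arrays. The difference was -0.25 (95% confidence interval -0.61 to 0.11, adjusted p = 0.47 from limma), -0.07 without WT 1 and -0.38 without WT 3.

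**Figure D2:**
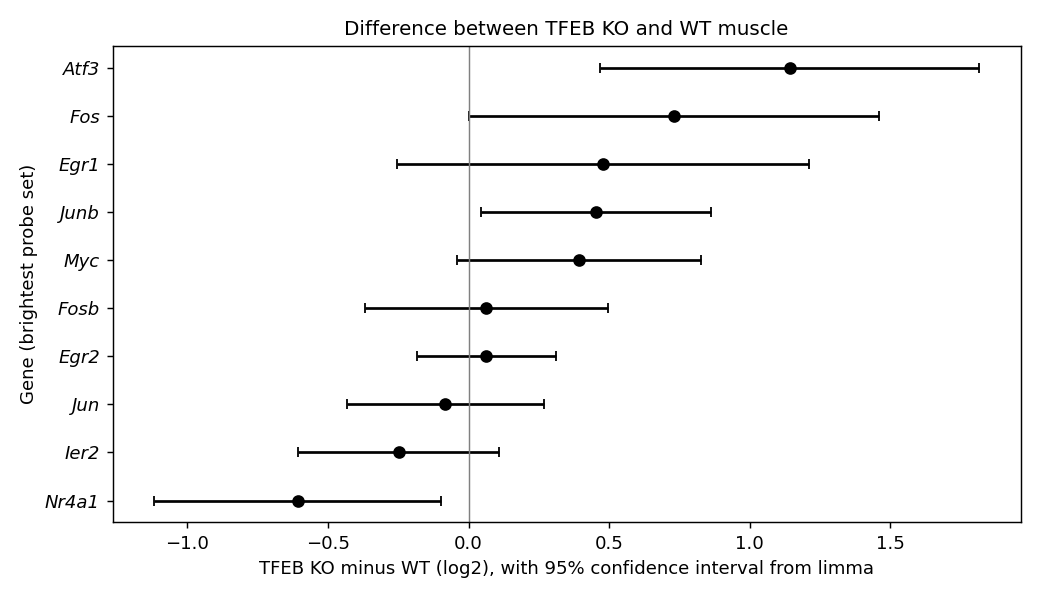
Difference between TFEB KO and WT muscle (log2, horizontal axis) of the brightest probe set of each factor, with points for the estimate and bars for the 95% confidence interval from limma (3 mice per group). The intervals of Atf3, Fos, Junb and Nr4a1 leave out 0, and 0 of the 10 passed after adjustment.

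The arrays within a group were compared next. TFEB KO 1 was the lowest TFEB KO array for 6 of the 10 factors (Fos, Junb, Egr1, Atf3, Myc and Ier2) and the highest for Nr4a1 and Egr2. Of all genes, it was the lowest TFEB KO array in 35.7% and the highest in 35.2%. Over the 10 factors, TFEB KO 2 and 3 differed by a mean of 0.15 log2 units, whereas TFEB KO 1 differed from them by 0.39 and 0.40 and from WT 1 and WT 2 by 0.33 each. By this measure TFEB KO 1 was closer to WT 1 and WT 2 than to the mice of its own group. Over all 12393 genes it was closest to TFEB KO 2 and 3, at 0.20 and 0.21, against 0.23 to 0.24 for the WT arrays. TFEB KO 2, however, was closest to TFEB KO 3 (0.168) but nearer to WT 2 (0.190) than to TFEB KO 1 (0.205).

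The WT mice differed from each other as well. WT 1 had the highest WT values of Fos, Egr1, Atf3 and Ier2. WT 3 had the highest WT values of Fosb, Jun, Egr2, Nr4a1 and Myc and the lowest WT values of Junb, Atf3 and Ier2. The mean difference over the factors was 0.63 between WT 1 and WT 3, 0.40 between WT 1 and WT 2 and 0.41 between WT 2 and WT 3, where over all genes these pairs differed by 0.18, 0.14 and 0.18. Among TFEB KO arrays the spread was wide for Atf3 (range 1.10), Fos (0.99) and Nr4a1 (0.86) and at most 0.30 for the other members. Among WT arrays it was widest for Egr1 (1.41) and Fos (0.94), and it was 0.55 to 0.79 for all others but Egr2 (0.17). The pooled SD exceeded that of 97.3% of genes for Nr4a1, 93.4% to 94.9% for Junb, Fosb and Myc, 87.4% for Ier2, 86.0% for Jun and 44.4% for Egr2.

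**Figure D3:**
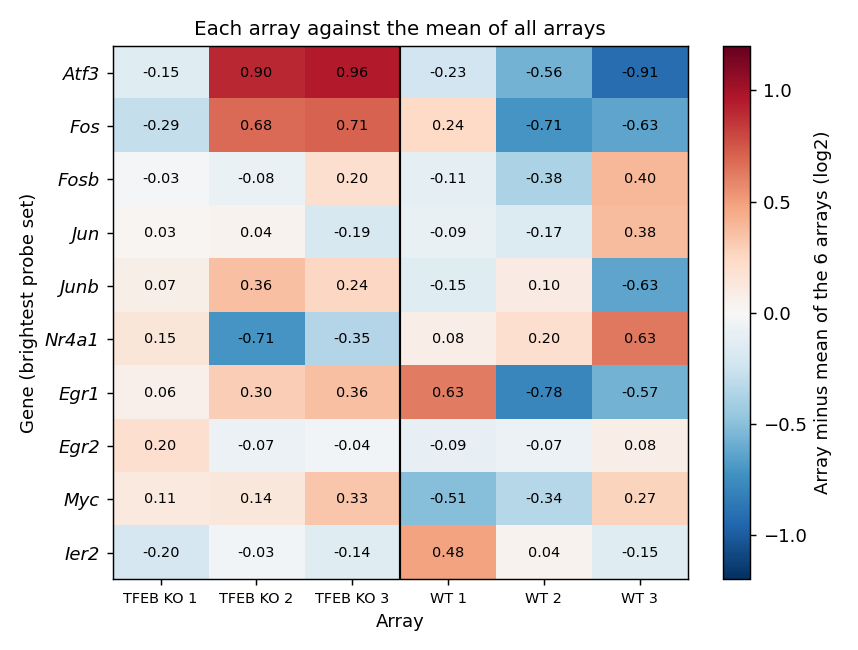
Value of each array minus the mean of the 6 arrays (log2, color and printed number) for the brightest probe set of the 10 factors, with the 3 TFEB KO arrays left of the 3 WT arrays. TFEB KO 2 and 3 share high Atf3 and Fos and low Nr4a1, which TFEB KO 1 does not, and WT 1 stands out for Egr1 and Ier2.

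Atf3 had the widest range over the 6 arrays, 1.87. Among the 7675 other genes with a mean value of at least 6, those whose pattern was most like it were Srxn1 (sulfiredoxin), 1810021B22Rik, Ccn3, Egln3 (a prolyl hydroxylase of HIF) and Dusp10 (a MAP kinase phosphatase), with a Pearson r of 0.988 to 0.995 over 6 arrays. They were picked for this likeness, so the r is a description only. Srxn1 read 8.04, 8.68 and 8.70 in TFEB KO muscle, against 8.11, 7.93 and 7.69 in WT muscle. In all 5 of these genes TFEB KO 1 was the lowest TFEB KO array, which follows from their choice by likeness to Atf3. None passed the test (adjusted p = 0.087 to 0.57 from limma).

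Other factors of the same families were examined as lists. Of 13 AP-1 relatives, 0 rose and 0 fell, with a median difference of 0.12. Atf4, a bZIP factor of the stress response that is known to induce Atf3, read 11.49, 11.79 and 11.64 in TFEB KO muscle, against 11.37, 11.35 and 11.33 in WT muscle, and Mafg, a small MAF protein, was at 0.35, neither passing (adjusted p = 0.19 and 0.16 from limma). Of 7 EGR and NR4A relatives, among them the NAB corepressors of EGR proteins, 0 passed. Nab2, which EGR1 is known to induce and which restrains it, was at 0.37 (adjusted p = 0.12), and Nab1 at 0.17. All arrays but TFEB KO 1 read Nab2 within the range of the genes of other organs. Nr4a2 and Nr4a3, the paralogs of Nr4a1, were at -0.08 and -0.05 with all 6 arrays between 5.45 and 5.74 and between 6.77 and 7.01. The values of Nr4a2 lay within the range of the genes of other organs and those of Nr4a3 just above it, so these probe sets may show little signal. Of 10 partners and paralogs of MYC 0 passed, with Mxi1 at -0.27, Mxd1 at 0.18 and a median of -0.07. Mxd1 also lay within the range of the genes of other organs on all arrays.

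Of 46 other immediate early genes, 2 rose and 1 fell, with a median of 0.13. Phlda1, a regulator of cell survival, rose by 1.05 (adjusted p = 0.022 from limma), at 7.60, 7.95 and 8.15 in TFEB KO muscle, against 6.69, 6.96 and 6.89 in WT muscle. Btg1, an antiproliferative gene, rose by 0.62 (adjusted p = 0.025), and Id3, an inhibitor of bHLH factors, fell by 0.71 (adjusted p = 0.031). All 3 calls were lost without TFEB KO 2 or any WT array, and those of Btg1 and Id3 also without TFEB KO 3 (adjusted p up to 0.11). That of Id3 was also lost with the replicate number as a block (adjusted p = 0.054). As for Fos, TFEB KO 1 was the lowest TFEB KO array in 31 of the 46 genes (67.4%), against 35.7% of all genes. This was not particular to early genes. The share was 72.7% in endothelial markers, 66.7% in satellite cell markers and 61.5% in heat shock genes, but 0% in macrophage and fibroblast markers. Cebpd, an early bZIP factor of the acute phase, and Ccn1, a matricellular gene, named here after their values were seen and not past the test (adjusted p = 0.063 and 0.39), read 8.30, 9.42 and 9.48, and 7.05, 8.72 and 8.72, in TFEB KO muscle, against 7.65, 7.48 and 7.97, and 7.69, 6.96 and 7.45, in WT muscle. Of 23 upstream regulators, among them Srf, Creb1, calcineurin subunits and MAP kinases, 1 fell on its brightest probe set, the ETS factor Elk3 by 0.46 (adjusted p = 0.045 from limma), and 0 rose. The dimmer probe sets of Elk3 were at -0.10 and -0.16, with overlapping groups (adjusted p = 0.67 and 0.50 from limma). On its brightest, Elk3 lost its call without any single array but TFEB KO 1 (adjusted p up to 0.17) and with the block (adjusted p = 0.068). The probe sets of Mapk14, the MAP kinase p38 alpha, disagreed in size: the brightest was at -0.17 (adjusted p = 0.44), while 2 of its 3 dimmer ones were lower in TFEB KO muscle past the test, by -0.68 and -0.65 (adjusted p = 0.042 and 0.043). Of Fbxo33 in the list above, the brighter probe set was at 0.31 and the dimmer one at 0.55, the second past the test (adjusted p = 0.028).

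**Figure D4:**
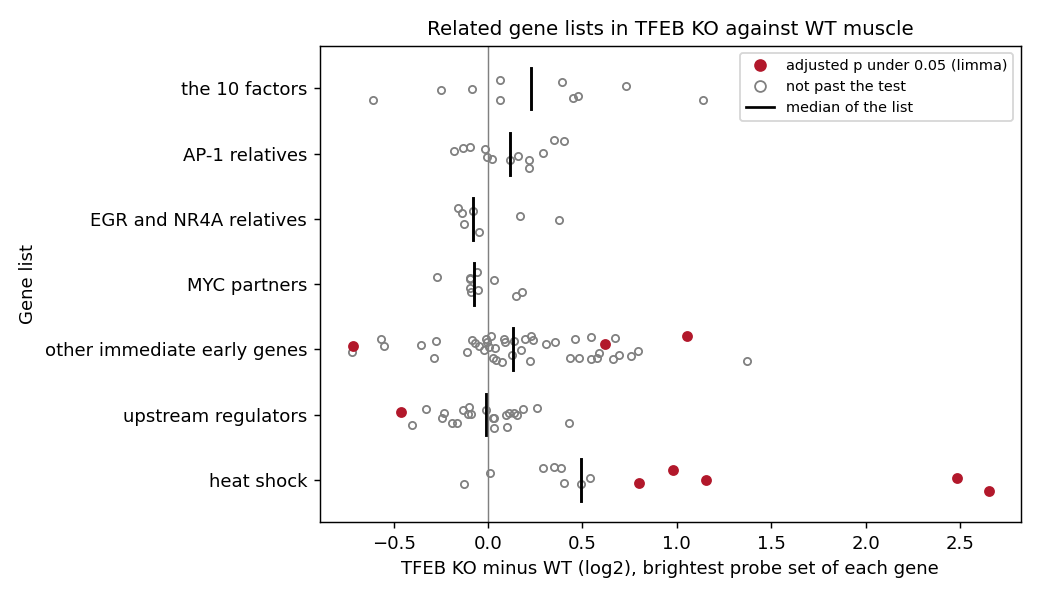
Difference between TFEB KO and WT muscle (log2, horizontal axis) of each gene's brightest probe set in 7 lists, with filled points for genes past the test (adjusted p under 0.05 from limma), open points for the rest and a line at each median. None of the 10 factors is filled, 3 of the 46 other immediate early genes are, and the heat shock genes reach 2.65.

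Heat shock genes and markers of other cell types differed between the groups as well. Of 13 heat shock genes, 5 rose and 0 fell in TFEB KO muscle. Hspa1a, which encodes the inducible chaperone HSP70, read 8.72, 9.91 and 10.26 in TFEB KO muscle, against 7.08, 7.46 and 6.41 in WT muscle, so that TFEB KO 1 was again the lowest of its group but above every WT array. Its near-identical copy Hspa1b differed by 2.49, Hsp90aa1 by 1.15 and Hsph1 by 0.98 (adjusted p = 0.015 to 0.044 from limma for the 4), and probe sets of the 2 HSP70 genes may read both. All 4 calls were lost without TFEB KO 2, WT 1 or WT 3 (adjusted p = 0.051 to 0.14). Markers of macrophages were above 0 in 19 of 19 genes, 8 of them past the test, with mean log2 values of 7.96 to 8.54 in TFEB KO and 6.79 to 7.42 in WT muscle. Their mean was highest on TFEB KO 1, at 8.54 against 7.99 and 7.96 on TFEB KO 2 and 3, which had the higher Atf3 and Fos. On WT 1, 2 and 3 it was 7.42, 7.18 and 6.79. Among these, WT 1 had the highest Atf3 and Fos. Markers of endothelial cells were below 0 in 11 of 11 genes, 6 past the test (means 6.98 to 7.08 in TFEB KO and 7.61 to 7.69 in WT muscle), as were 8 of 9 markers of smooth muscle and pericytes, 2 past the test (means 8.08 to 8.14 in TFEB KO and 8.41 to 8.61 in WT muscle). In fibroblast markers, 0 of 9 passed, and TFEB KO 1 averaged 10.61 against 9.84 and 9.80 on TFEB KO 2 and 3, and 9.85 to 10.21 in WT muscle. Of 9 satellite cell, 10 neutrophil and 3 red blood cell markers 0 passed. The part of these cell types and of the heat shock genes in the values of the 10 factors was not tested.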

How the data were processed

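The muscle of 3 TFEB KO and 3 WT mice was profiled with 1 Affymetrix array per mouse. The deposited log2 values were made by the authors with RMA through affy per the submitters' processing notes, version not given in the sources used here. RMA corrects the background, equalises the arrays and summarises the probes, so a shift common to most genes is largely lost. Of 22690 probe sets, 64 controls were left out. By the platform annotation, 20380 of the 22626 tested name 1 gene, 691 several and 1555 none. A gene was judged on its brightest probe set.

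Groups were compared with limma 3.58.1 (lmFit, eBayes) in R 4.3.3 across all probe sets, two-sided, with Benjamini-Hochberg adjustment and a threshold of 0.05. The fit was tested on simulated data. Promoters were read and figures drawn with matplotlib 3.10.9, NumPy 2.4.6 and pandas 2.3.3 under Python 3.11.15. Promoters are those of RefSeq. Members and lists were chosen with earlier results of these data known. All members are named. From the lists of related genes and of heat shock genes, the text names up to 4 genes past the test with the largest change, or the 2 with the smallest p where none passed, and for marker lists counts are given. Nr4a2, Nr4a3, Srf, Creb1, Alb, Prm1, Acta1 and Ckm, like Cebpd, Ccn1, Mapk14 and Fbxo33, are named outside this rule. For likeness, the member with the widest range over the arrays and the 5 genes that correlate best with it are given. Arrays give no depth, so their number limits the precision. The limma p-values weigh the difference of the group means against the spread between the mice, which eBayes moderates across all probe sets. Other settings were each array left out, array weights, dim probe sets (mean under 6) left out and quantile normalization run again. Arrays were shifted to 1 common 75th percentile, and a replicate block, trended robust moderation and the mean of a gene's probe sets were used. The last setting was a Student's t-test, which the paper lists among its general statistical tests. The sources used here do not name the test the study used on its arrays.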

Additional observations from a re-analysis of the deposited data

How the results depend on the processing

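The count of factors past the test stayed at 0 in each direction with every array-wide setting, and leaving out single arrays gave 0 to 1 higher and 0 lower. The 1 was Atf3 without TFEB KO 1. Fewer arrays change the whole table too: 438 probe sets passed without TFEB KO 1 and 21 without WT 1, against 361 with all arrays. The median difference of the factors was 0.22 to 0.42 with the other settings, the highest with dim probe sets left out, which removes Fosb and Egr2, and 0.12 to 0.27 with single arrays left out. Fos, Junb, Egr1, Atf3, Nr4a1, Myc and Ier2 kept their sign in all 14 alternatives. Jun changed sign in 2 of them, Fosb in 2 and Egr2 in 1, none past the test. With the replicate number as a replicate block, 0 factors passed and 297 probe sets did, and Atf3 had an adjusted p of 0.13. Same-numbered mice had correlations of their deviations from the group means of 0.088, 0.048 and 0.27, and differently numbered mice of -0.25 to 0.17. These values do not settle whether the numbers pair the mice. The main test treated the mice as unpaired. The settings were applied to Tfeb and the genes of the other lists after the data had been seen. The Student's t-test called 1 probe set in all, which was not that of Tfeb (adjusted p = 0.13). Hspa1a lost its call without TFEB KO 2, TFEB KO 3 or any WT array, Hspa1b in these, with moderation changed and with the replicate block (adjusted p = 0.052), Id3 with this block (adjusted p = 0.054), Hsp90aa1 and Hsph1 without TFEB KO 2, WT 1 or WT 3, and Hsph1 also without TFEB KO 3. Elk3 kept its call only with a second quantile normalization, dim probe sets left out, array weights or without TFEB KO 1. The cause was not tested.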
